A study of Danio rerio with 15 samples.

Results

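Of the 15 arrays of a zebrafish embryo series, 12 form a layout of genotype by injection, and the comparison described here is the interaction of both factors, that is, the log2 effect of miR-430 injection in MZdicer embryos minus its effect in wild-type embryos, for each probe set. The 12 arrays were chosen by their labels alone. They held uninjected wild-type embryos at 9 hours after fertilisation, wild-type embryos injected with miR-430, uninjected MZdicer mutant embryos at 9 hours, and MZdicer embryos injected with miR-430, with 3 arrays in each group and RNA of 20 embryos on each array. Injection was made at the 1-cell stage, and the labels state no age at collection for the injected groups and no strain for the 12 arrays. MZdicer embryos lack both the maternal and the zygotic supply of Dicer, the enzyme that cuts microRNA precursors into mature microRNAs. The labels name no group injected with another substance, so within a genotype the effect of miR-430 and that of being injected cannot be told apart. An effect of injection of equal size in both genotypes cancels in the interaction on the log2 scale.

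MicroRNAs guide Argonaute proteins to partly complementary sites, mostly in the 3′ untranslated regions of messenger RNAs, where they repress translation and recruit deadenylases that shorten the poly(A) tail. In zebrafish the miR-430 family is transcribed in large amounts when the zygotic genome becomes active, and it is known for speeding the removal of transcripts that the mother deposited in the egg. Wild-type embryos make their own miR-430, whereas MZdicer embryos cannot process it and receive it only by injection. A transcript that injection lowers in MZdicer and leaves level in wild type has an interaction below 0. The RNA was reverse transcribed from an oligo(dT) primer, so tail length enters the signal besides the amount of a transcript.

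Values below are intensities on a linear scale after quantile normalisation, given array by array or as the mean ± SD of a group's 3 arrays. Log2 changes are on the scale of log2(intensity + 16), which understates the change of dim transcripts, and they carry the standard error (SE) of the fit. Adjusted p-values come from limma with Benjamini-Hochberg adjustment over 15502 probe sets, and a probe set was called at an adjusted p under 0.05. Precision is limited by the number of arrays. The labels do not state separate clutches for the replicates, and the p-values then reflect only how these samples spread, which may be technical. Median deposited intensities ranged from 171 to 196 and correlations of log2 values within a group from 0.983 to 0.994. The root mean square deviation from the group mean was largest for injected MZdicer replicate 1, at 0.194 on the log2 scale, and lay between 0.110 and 0.167 on the other 11 arrays. The information files that came with the arrays gave 2 scan days and 4 distinct entries for the hybridisation date. Arrays that share such an entry are called a fluidics run here, a name that the files do not give. All 6 MZdicer arrays and injected wild-type replicate 3 shared 1 run, while no run held uninjected wild type together with another group, so the run and that group cannot be told apart. Within the shared run the 3 injected MZdicer arrays were on fluidics station 1 and the 3 uninjected ones on station 2, so station and injection cannot be told apart in MZdicer. The ratio of the middle to the 5′ actin control probe set was 18.2 ± 2.58 in uninjected MZdicer, 12.4 ± 0.329 in injected MZdicer, 9.92 ± 1.11 in wild type without injection and 9.55 ± 0.754 with it. The ratio of the 3′ to the 5′ GAPDH control probe set went from 0.196 ± 0.013 to 0.149 ± 0.017 with injection in MZdicer and from 0.162 ± 0.016 to 0.204 ± 0.021 in wild type. Both ratios move with the interaction, and their part in the results was not tested.

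The transcript of the mutated gene was examined first. In wild type dicer1 read 485, 432 and 443 without and 534, 539 and 561 with injection, and in MZdicer 309, 288 and 310.0 without and 250.2, 283 and 288 with injection. Every MZdicer array lay below every wild-type array. The injection effect was 0.26 in wild type (adjusted p = 0.0319) and -0.14 in MZdicer (adjusted p = 0.212), and the interaction of -0.39 ± 0.10 was called (adjusted p = 0.0143). The position of its probes relative to the mutation is unknown here, so the signal that remains is no check of the labels.

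The change between uninjected and injected embryos differed between the 2 genotypes for many transcripts. Given the runs, the stations and the unstated age, these differences cannot be assigned to injection alone. The interaction was called for 3516 of 15502 probe sets (22.7%), with 1657 above 0 (10.7%) and 1859 below 0 (12%). At a size of at least 1.5-fold, 660 lay above 0 (4.26%) and 1104 below 0 (7.12%). The share of calls above 0 was 47.1% here, 35.1% with the intensities as deposited and 53.8% under median centring, so the balance of directions depends on scaling. The median interaction over all probe sets was 0.04 here, -0.02 with the deposited intensities and 0.07 with median centring.

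Beside the interaction, the injection effect in MZdicer was called for 3815 probe sets (24.6%) and that in wild type for 2193 (14.1%). Without uninjected wild-type replicate 3 the wild-type count was 1338. The 2 effects share no array. Across all 15502 probe sets, which share the normalisation and are not independent, they had a Pearson correlation of 0.01. Of the 691 probe sets that fell at least 1.5-fold in MZdicer (4.46%), 20 also fell that much in wild type, which is 2.89% of the MZdicer list and 8.62% of the 232 that fell in wild type (1.50%). Another 22 rose that much in wild type, which is 3.18% of the MZdicer list and 7.26% of the 303 that rose in wild type (1.95%). Seen the other way, the interaction is the genotype difference after injection minus that before it. Uninjected MZdicer and wild type differed for 7344 probe sets (47.4%), and injected MZdicer and wild type for 3232 (20.8%), with standard deviations of the log2 difference over all probe sets of 0.51 and 0.33. These 2 genotype differences share no array either, and their correlation across probe sets was 0.56.

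The 1764 interactions of at least 1.5-fold were sorted into 4 classes by their sign and by the genotype in which injection had the larger effect. Of the 1104 below 0, MZdicer had the larger effect for 753 (68.2%), with a median injection effect of -0.77 in MZdicer and 0.15 in wild type. Wild type had the larger effect for 351, with medians of -0.22 in MZdicer and 0.64 in wild type. Of the 660 above 0, MZdicer had the larger effect for 396 (60.0%), with medians of 0.58 and -0.17, and wild type for 264, with medians of 0.23 and -0.62. Most had effects of opposite sign, which selection by the difference of 2 effects with a correlation of 0.01 favours in advance. The fitted effect was below 0 in MZdicer and above 0 in wild type for 868 of the 1104, and the reverse for 535 of the 660. Both effects were called on their own for 194 and 129 of these. The classes follow from the same arrays as the calls and are a description. The genes named for each class are the 6 of largest interaction among probe sets of above-median intensity with a single gene symbol.

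**Figure D1:**
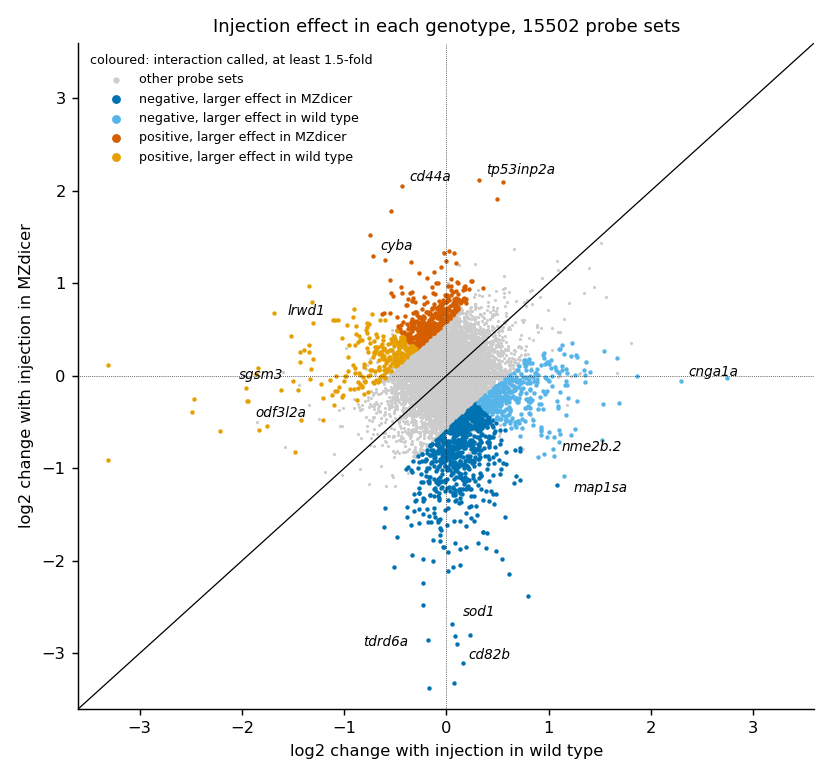
Log2 change with injection in wild type (horizontal axis) and in MZdicer (vertical axis) for 15502 probe sets, each change over 3 injected and 3 uninjected arrays. Points on the diagonal line have equal effects and an interaction of 0. Coloured points are the 1764 called interactions of at least 1.5-fold, by sign and by the genotype with the larger effect. The cloud has no clear slope (correlation 0.01), and sod1, tdrd6a and cd82b lie far below 0 on the vertical axis with wild-type effects near 0.

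Among genes with an interaction below 0 led by MZdicer, the 6 of largest size were cd82b, sod1, tdrd6a, caprin2, gstp1.2 and ap2m1b. The cytosolic superoxide dismutase gene sod1 stood at 303, 269 and 263 without and 276, 282 and 307 with injection in wild type, and at 1816, 1848 and 1904 without and 273, 263 and 293 with injection in MZdicer. The other groups overlapped and the uninjected MZdicer arrays stood apart above them. The injection effect was -2.68 in MZdicer and 0.05 in wild type (adjusted p = 0.714), and the interaction was -2.73 ± 0.10 (adjusted p = 8.34e-09). The germ plasm gene tdrd6a, which encodes a Tudor-domain protein, stood at 107, 90.1 and 96.1 without and 86.2, 70.097 and 98.7 with injection in wild type, and at 968, 1046 and 1015 without and 149.9, 124 and 105 with injection in MZdicer. Again only the uninjected MZdicer arrays were high, and the interaction was -2.68 ± 0.18 (adjusted p = 7.81e-07). The tetraspanin gene cd82b stood at 30.1, 57.4 and 64.2 without and 51.0, 46.4 and 64.5 with injection in wild type, and at 1012, 1087 and 1083 without and 162, 104 and 123 with injection in MZdicer. Its injected MZdicer arrays stayed above all wild-type arrays, and its interaction was -3.01 ± 0.27 (adjusted p = 8.15e-06). Of 2 other probe sets of cd82b, 1 was called in the same direction, with interactions of -0.91 and -0.36.

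The RNA-binding gene caprin2 went from 1521 ± 57.9 to 261 ± 39.5 in MZdicer and stood at 239.8 ± 13.9 and 201 ± 4.88 in uninjected and injected wild type (interaction -2.25, adjusted p = 2.79e-07). The glutathione S-transferase gene gstp1.2 went from 1072 ± 23.7 to 327 ± 68.1 in MZdicer, against 226 ± 23.0 and 296 ± 40.9 in wild type (interaction -2.05, adjusted p = 9.92e-06). The gene ap2m1b, for the medium subunit of the AP-2 clathrin adaptor, behaved differently after injection. It was 1583 ± 20.5 in uninjected and 428 ± 36.0 in injected MZdicer, the latter below 561 ± 62.2 in uninjected and 641 ± 32.3 in injected wild type, with no overlap. Its interaction was -2.04 ± 0.11 (adjusted p = 2.79e-07), and its other probe set gave -1.65.

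In the class below 0 led by wild type, the 6 of largest size were cnga1a, map1sa, nme2b.2, b9d1, rtn1a and rab6a. A rise with injection in wild type is set by the definition of this class and is no finding. Of the 6, 5 also had a called fall in MZdicer, cnga1a being the exception. The microtubule-associated protein gene map1sa stood at 91.0, 64.5 and 58.8 without and 183, 159.6 and 186 with injection in wild type, and at 457, 461 and 473 without and 216, 197 and 217 with injection in MZdicer. The groups did not overlap between injected and uninjected embryos in either genotype, and injected embryos of both genotypes lay close together between the uninjected groups. Its effects were 1.15 in wild type (adjusted p = 4.64e-05) and -1.08 in MZdicer (adjusted p = 1.74e-05), with an interaction of -2.24 ± 0.17 (adjusted p = 1.76e-06). The other probe set of map1sa was not called, at -0.18. The nucleoside diphosphate kinase gene nme2b.2 showed the same order, at 116, 90.2 and 108 without and 250.3, 229.8 and 221 with injection in wild type, and at 506, 589 and 604 without and 262, 317 and 330.5 with injection in MZdicer, with an interaction of -1.92 ± 0.16 (adjusted p = 3.31e-06).

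The ciliary transition zone gene b9d1 rose in wild type from 119.6 ± 5.68 to 277 ± 19.6 and fell in MZdicer from 357 ± 45.4 to 226 ± 27.5. The reticulon gene rtn1a rose from 159 ± 13.6 to 317 ± 23.0 and fell from 501 ± 25.9 to 324 ± 91.7. The gene rab6a, for a small GTPase of the Golgi, rose from 228 ± 39.4 to 501 ± 16.9 and fell from 544 ± 21.0 to 423 ± 10.4. Their interactions were -1.73, -1.57 and -1.44 (adjusted p of 6.88e-06, 2.71e-04 and 9.61e-06). In all 3 genes uninjected MZdicer lay above uninjected wild type, by 1.45, 1.56 and 1.21, while the differences after injection were -0.28, -0.01 and -0.23 and were not called. The gene cnga1a, for a subunit of cyclic nucleotide-gated channels, was of another kind. It stood at 157, 171 and 593 without and 1187, 1395 and 1365 with injection in wild type, and at 86.6, 87.7 and 100.1 without and 85.0, 105 and 73.5 with injection in MZdicer. Uninjected wild-type replicate 3 stood apart from the other arrays of its group, and the interaction was -2.36 ± 0.49 (adjusted p = 0.00348) with it and -2.94 without it.

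Interactions above 0 led by MZdicer were largest for cd44a, cyba, tp53inp2a, nr0b2a, selenop and hsd3b2. The gene cyba, for a subunit of the NADPH oxidase complex, stood at 1219.9, 1401 and 1139.5 without and 784, 687 and 788 with injection in wild type, and at 201, 202 and 211 without and 638, 493 and 463 with injection in MZdicer. Uninjected MZdicer was the lowest group, and the genotypes lay closer together among injected embryos, with injection effects of 1.30 in MZdicer and -0.72 in wild type. The interaction was 2.02 ± 0.15 (adjusted p = 2.15e-06), and the other probe set gave 2.26. The hyaluronan receptor gene cd44a stood at 239, 264 and 238 without and 230.4, 142 and 173 with injection in wild type, and at 80.9, 78.1 and 79.1 without and 675, 287 and 278 with injection in MZdicer. Injected MZdicer replicate 1 was the highest array, and the interaction was 2.48 ± 0.36 with it (adjusted p = 3.27e-04) and 2.07 without it. The gene tp53inp2a, whose mammalian counterpart takes part in autophagy, stood at 970.3, 954 and 1033 without and 1173, 1244 and 1273 with injection in wild type, and at 124, 134 and 138 without and 979.7, 512 and 489 with injection in MZdicer. The same array was again the highest of its group, and the interaction was 1.81 ± 0.26 with it (adjusted p = 3.14e-04) and 1.49 without it.

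The orphan nuclear receptor gene nr0b2a rose in MZdicer from 1127 ± 16.5 to 2126 ± 373 and fell in wild type from 3373 ± 325 to 2312 ± 40.8 (interaction 1.43, adjusted p = 1.61e-05). After injection the genotypes differed by -0.13, against -1.56 before. The steroid dehydrogenase gene hsd3b2 rose in MZdicer from 999 ± 89.7 to 2522 ± 112, above both wild-type groups at 1346 ± 77.2 and 1319.8 ± 32.4 (interaction 1.35, adjusted p = 1.06e-06). The gene selenop, for a selenium transport protein, rose in MZdicer from 393 ± 34.2 to 732 ± 134 and fell in wild type from 486 ± 31.0 to 340.3 ± 78.5 (interaction 1.38, adjusted p = 6.76e-04). In these last 2 genes injected MZdicer stood above injected wild type, with a genotype difference of 0.93 for hsd3b2 (-0.43 before injection) and of 1.08 for selenop (-0.30 before, not called).

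In the class above 0 led by wild type, the 6 of largest size were sgsm3, odf3l2a, lrwd1, cyp2ad2, prpf3 and snap29. A fall with injection in wild type is set by the definition of this class and is no finding. The gene sgsm3, for a protein with a Rab GTPase-activating domain, stood at 338, 335 and 300.5 without and 70.6, 65.6 and 79.1 with injection in wild type, and at 220.2, 215 and 205 without and 192, 179.5 and 208 with injection in MZdicer. Injected wild type was the lowest group without overlap, and the MZdicer groups differed by -0.14 (adjusted p = 0.308). Its effect in wild type was -1.96 and its interaction 1.82 ± 0.12 (adjusted p = 9.71e-07). The gene odf3l2a, named after an outer dense fibre protein of sperm, had the same order at 360.2, 377 and 314 without and 85.3, 86.5 and 67.4 with injection in wild type, and at 212, 232 and 241 without and 115, 239 and 231 with injection in MZdicer. Injected MZdicer replicate 1 was low within its group, and the interaction was 1.67 with it (adjusted p = 9.65e-04) and 1.97 without it.

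The replication gene lrwd1, whose product binds the origin recognition complex, fell in wild type from 982 ± 202 to 459.8 ± 62.4 and rose in MZdicer from 173 ± 13.3 to 280.4 ± 101 (interaction 1.66, adjusted p = 1.00e-03, with 1.87 on its other probe set). The splicing factor gene prpf3 fell from 371 ± 55.9 to 188 ± 8.41 and rose from 174 ± 3.22 to 280.1 ± 34.9 (interaction 1.55, adjusted p = 1.61e-05). The membrane fusion gene snap29 fell from 293 ± 34.5 to 136 ± 14.7 and rose from 219 ± 6.60 to 301 ± 71.4 (interaction 1.43, adjusted p = 1.91e-04). The rises of lrwd1 and snap29 in MZdicer were close to the threshold (adjusted p of 0.0450 and 0.0466). Injected MZdicer replicate 1 was the highest of its group in both, at 392 against 195 and 253 for lrwd1 and 383 against 254 and 265 for snap29. The cytochrome P450 gene cyp2ad2 fell in wild type from 297 ± 55.5 to 107 ± 21.7 and read 171 ± 8.45 and 218 ± 86.1 in MZdicer (interaction 1.60, adjusted p = 0.00227). Other probe sets did not show the effect for prpf3 (0.29), snap29 (0.21) and cyp2ad2 (0.17 and -0.01), none of which was called. All uninjected wild-type arrays came from fluidics runs of their own, so for this class and for the class below 0 led by wild type, run and injection cannot be told apart within wild type.

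**Figure D2:**
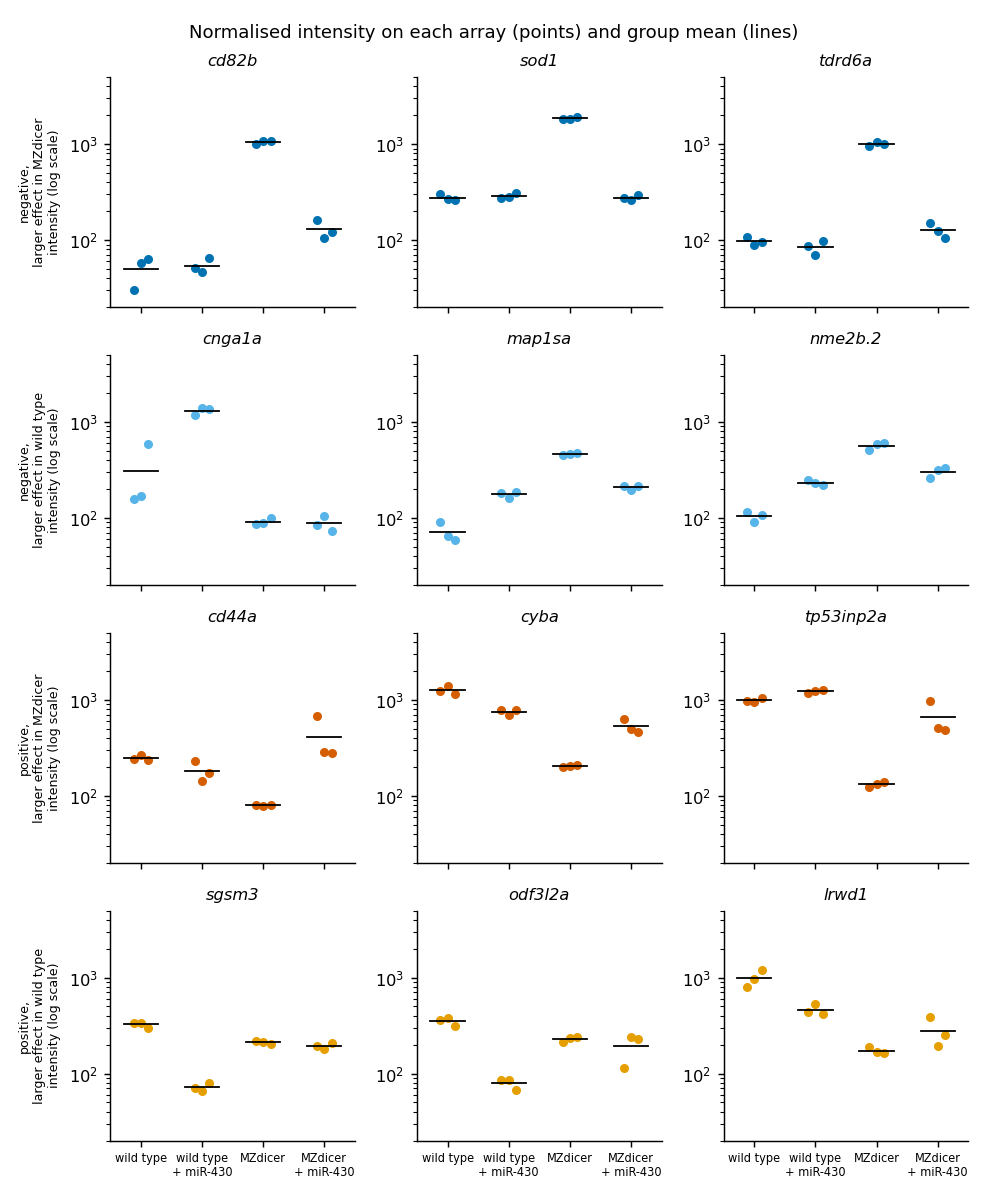
Normalised intensity on a log axis for 12 genes, the 3 of largest interaction in each of the 4 classes (rows). Each point is 1 array and each line the mean of 3 arrays. In the top row only uninjected MZdicer is high. In the second row injected wild type lies above uninjected wild type, in the third row uninjected MZdicer is the lowest group, and in the bottom row injected wild type lies below uninjected wild type. The direction of the larger injection effect in each row is set by the definition of its class.

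**Figure D3:**
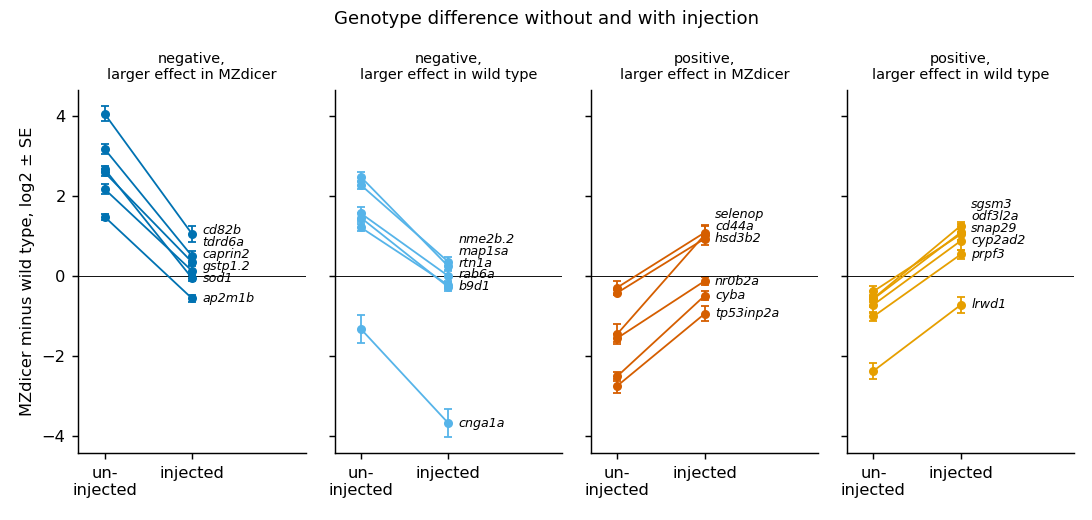
Log2 difference between MZdicer and wild type (± SE, 3 arrays in each group) among uninjected and among injected embryos, for the 6 named genes of each class. The change from left to right in a line is the interaction. Lines of genes such as sod1, rtn1a and nr0b2a end near 0, whereas that of cnga1a moves away from it. Those of hsd3b2 and sgsm3 cross 0 and end farther from it than they began.

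The 8 transcripts described as miR-430 targets in other experiments were compared next. The interaction was called below 0 for 3 of them (cxcl12a, nanos3 and lft2) and above 0 for 1 (lft1). It was not called for the other 4. Over all probe sets 22.7% were called, and with the dimmest 40% left out 3084 of 9301. The list median was -0.37, against 0.04 over all probe sets. The gene cxcl12a, for a chemokine followed by germ cells as they migrate, stood at 222, 185 and 157 without and 264, 232 and 264 with injection in wild type, and at 994, 1071 and 1009 without and 454, 437 and 481 with injection in MZdicer. Its injection effect was -1.14 in MZdicer and 0.41 in wild type (adjusted p of 3.27e-06 and 0.0164), and injected MZdicer stayed above all wild-type arrays. Its interaction was -1.55 ± 0.14 (adjusted p = 1.07e-05), with -0.92 on its other probe set.

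The germ cell gene nanos3, for an RNA-binding protein that germ cells need, had an interaction of similar size with another make-up. It stood at 276, 252 and 290.2 without and 764, 727 and 675 with injection in wild type, and at 537, 651 and 574 without and 529, 655 and 590.4 with injection in MZdicer. The 2 MZdicer groups overlapped, while injected wild type lay above uninjected wild type and above both MZdicer groups. Its effect was 1.35 in wild type (adjusted p = 3.26e-06) and 0.01 in MZdicer (adjusted p = 0.964), with an interaction of -1.34 ± 0.13 (adjusted p = 1.55e-05).

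The Lefty genes lft1 and lft2 encode secreted antagonists of Nodal signals, and their interactions had opposite signs. The transcript lft2 stood at 569.9, 586 and 651 without and 547, 474 and 489 with injection in wild type, and at 981, 1001 and 889 without and 462, 424 and 387 with injection in MZdicer. The high group was uninjected MZdicer, and the interaction was -0.89 ± 0.12 (adjusted p = 1.44e-04). The transcript lft1 stood at 679, 739 and 698 without and 548, 499 and 480.2 with injection in wild type, and at 452, 453 and 427 without and 757, 474 and 459 with injection in MZdicer. The injection effect on lft1 was -0.46 in wild type (adjusted p = 0.0466) and, not called, 0.30 in MZdicer (adjusted p = 0.157). The lft1 interaction was 0.76 ± 0.20 (adjusted p = 0.0151), and 0.53 without injected MZdicer replicate 1, its highest injected MZdicer array.

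The 4 targets without a call were the chemokine receptor gene ackr3b (-0.40 ± 0.15, adjusted p = 0.0739), the germ cell gene dazl (-0.35 ± 0.18, adjusted p = 0.197), the Nodal ligand gene ndr1 (-0.18 ± 0.11, adjusted p = 0.294) and the Tudor-domain gene tdrd7a (0.09 ± 0.14, adjusted p = 0.716). The tdrd7a value was -0.01 with the intensities as deposited and lay between 0.036 and 0.17 with 1 array left out, called in none of these. The ackr3b interaction was called without injected MZdicer replicate 1 (-0.48, adjusted p = 0.0313) or injected wild-type replicate 3 (-0.48, adjusted p = 0.0457), and that of dazl without injected MZdicer replicate 2 (-0.50, adjusted p = 0.0241). At 16 cells nanos3, dazl and tdrd7a read 3884 and 4119.7, 4719 and 5174, and 1792 and 1711, so all 3 were present before the zygotic genome becomes active. The single 50% epiboly array read 656, 99.8 and 182.

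Other gene lists were read in the same way, against the background of 10.7% of probe sets called above 0 and 12% below 0. Counts of list members above or below 0 are counts of called interactions. Each gene stood with its brightest probe set, and bright probe sets were called more often. With the dimmest 40% left out, 1562 of 9301 probe sets were called above 0 and 1522 below 0. A list near that share shows nothing particular to its members. Genes outside the naming rule, given to account for small counts, were picked out after their values were seen. Among 15 germ plasm and germ cell genes, 3 interactions were called below 0 (tdrd6a, nanos3 and celf1) and 3 above 0 (piwil2, ddx4 and zar1). The list median was 0.09. The piRNA pathway gene piwil2 read 55.7 ± 7.07 in uninjected and 91.9 ± 11.7 in injected MZdicer, against 67.3 ± 3.83 and 51.1 ± 8.35 in wild type (interaction 0.90, adjusted p = 0.00214). With the dimmest 40% left out, 7 of the 15 remained, with 2 called above and 3 below 0, against 3084 of 9301 probe sets. Counts this small, with calls in both directions, are a description, and whether the list differs from other probe sets was not tested. With the intensities as deposited and under median centring, 2 of the 15 were called above and 2 below 0.

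Of 26 Nodal and mesendoderm genes, 11 interactions were called above 0 and 2 below 0, lft2 and smad2, with a list median of 0.35. With the intensities as deposited, 7 lay above 0 and 2 below. The Nodal co-receptor gene tdgf1 stood at 1647, 1668 and 1840.4 without and 1460.3, 1561 and 1486 with injection in wild type, and at 848, 798 and 840.3 without and 1674, 1348 and 1351 with injection in MZdicer. Uninjected MZdicer was the lowest group without overlap, and the interaction was 0.99 ± 0.11 (adjusted p = 4.16e-05). The endoderm transcription factor gene sox32 fell in wild type from 1075 ± 71.5 to 695 ± 25.9 and rose in MZdicer from 497 ± 4.09 to 609 ± 93.0 (interaction 0.89, adjusted p = 2.57e-04). Median injection effects of the list were 0.25 in MZdicer, with 12 rises (11.9% of all probe sets) and 2 falls (12.7%) called, and -0.03 in wild type, with 1 rise (7.34%) and 4 falls (6.81%).

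Of 38 BMP and dorsoventral genes, 13 interactions were called above 0 and 1 below 0, that of szl, which encodes a secreted regulator of Chordin breakdown. The list median was 0.20. The gene admp, for a BMP ligand of the dorsal organiser, stood at 1223, 1144 and 1296 without and 954, 910.4 and 905 with injection in wild type, and at 519, 603 and 604 without and 1037, 959 and 973 with injection in MZdicer. It rose in MZdicer and fell in wild type, and the injected groups lay close together (genotype difference 0.10, adjusted p = 0.349), with an interaction of 1.17 ± 0.10 (adjusted p = 4.69e-06). The ventral ligand gene bmp2b rose in MZdicer from 683 ± 29.0 to 978 ± 30.4, against 958 ± 47.8 and 843 ± 36.2 in wild type (interaction 0.69, adjusted p = 6.98e-05). The ectodermal transcription factor gene gata2a had an interaction of 0.58 (adjusted p = 9.97e-05). The wild-type effect of this list had 4 rises and 9 falls (7.34% and 6.81% of all probe sets) and a median of -0.14, and that in MZdicer 13 rises and 3 falls (11.9% and 12.7%) and a median of 0.11.

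For cell cycle genes of the oocyte and early embryo, 10 of 30 interactions were called above 0 and 4 below 0 (ccna1, cdc25b, ccnb2 and cdk1). The list median was 0.11. Without injected wild-type replicate 1 or uninjected wild-type replicate 3, 6 lay above 0, and under median centring 11 lay above and 1 below 0. The gene cdc20, for an activator of the anaphase-promoting complex, fell in wild type from 1888 ± 67.7 to 1483 ± 40.6 and rose in MZdicer from 978 ± 48.2 to 1226 ± 30.4 (interaction 0.67, adjusted p = 3.39e-05). The replication licensing gene cdc6 had an interaction of 0.83 (adjusted p = 6.00e-05), and fbxo5, for an inhibitor of the same complex, 0.61 (adjusted p = 2.77e-04), the latter with a fall in wild type of -0.49 and an effect of 0.12 in MZdicer that was not called. The cyclin gene ccna1 lay on the other side at -1.26, from 228 ± 41.2 to 80.3 ± 48.4 in MZdicer. The wild-type effect of this list had 0 rises and 10 falls called (7.34% and 6.81% of all probe sets) and a median of -0.17. That in MZdicer had 3 rises, cdc20 and cdc6 among them, and 7 falls (11.9% and 12.7%), with a median of -0.01.

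Periderm and enveloping layer genes had 6 of 28 interactions called above 0 and 4 below 0 (anxa1a, icn2, anxa1c and ppl), with a median of 0.00. With the intensities as deposited 4 lay above 0, and under median centring 9. The count below 0 was 1 without uninjected MZdicer replicate 2, or without 1 of the injected wild-type replicates 1 and 3. It was 2 without any 1 of uninjected MZdicer replicates 1 and 3, injected wild-type replicate 2, and uninjected wild-type replicates 2 and 3. The Krüppel-like factor genes klf17 and klf2b had 0.95 and 0.73 (adjusted p of 9.38e-06 and 2.19e-04), klf17 with a rise in MZdicer from 392 ± 27.6 to 655 ± 24.5. The structural gene ppl, for the cornified envelope protein periplakin, had -0.35 (adjusted p = 0.00112). For genes of the yolk syncytial layer and of lipid transport, 6 of 22 were called above 0 and 5 below 0 (apoa2, fabp2, tfa, apobb.1 and afp4). The apolipoprotein gene apoa2 stood at 963, 875 and 804 without and 1368, 1429 and 1534 with injection in wild type, and at 2113, 2162 and 2037 without and 1269.6, 1531 and 1699 with injection in MZdicer. It rose in wild type and fell in MZdicer, and its interaction was -1.20 ± 0.13 (adjusted p = 3.83e-05). The carboxypeptidase gene cpn1 had an interaction of 0.51 (adjusted p = 3.54e-04). The nuclear receptor gene hnf4a had 1.17 (adjusted p = 6.21e-04), but -0.06 on its other probe set, which was not called.

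Paraxial mesoderm and tailbud genes had 0 of 24 interactions called above 0 in limma. At an unadjusted p under 0.05 in limma, 1 lay above and 7 below 0. Over all probe sets 5206 of 15502 were under it, in either direction. The 3 called below 0 are a share near or under the background. These were the Delta ligand gene dlb, the retinoic acid synthesis gene aldh1a2 and the retinoic acid breakdown gene cyp26a1. The transcript dlb stood at 70.4, 76.1 and 60.9 without and 108, 129 and 124 with injection in wild type, and at 293, 281 and 312 without and 128, 124 and 139.8 with injection in MZdicer. Both injected groups lay close together between the uninjected ones, and the interaction was -1.77 ± 0.14 (adjusted p = 2.42e-06), with -0.75 on its other probe set. The gene aldh1a2 rose in wild type from 1248 ± 93.8 to 2001 ± 134 and read 1963 ± 45.6 and 1786 ± 31.9 in MZdicer (interaction -0.81, adjusted p = 2.97e-05). The cyp26a1 interaction of -0.41 (adjusted p = 0.00980) was lost under median centring (-0.27, adjusted p = 0.0732). The wild-type effect of this list had 8 rises and 0 falls called (7.34% and 6.81% of all probe sets) and a median of 0.15. That in MZdicer had 5 rises and 3 falls (11.9% and 12.7%) and a median of 0.04.

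Neural plate genes had 6 of 39 interactions called above 0 and 6 below 0, with a median of 0.02. The transcription factor gene sox11a fell in MZdicer from 3576 ± 165 to 2059.7 ± 37.1 and read 1459 ± 77.6 and 1495 ± 43.3 in wild type (interaction -0.83, adjusted p = 6.04e-06). Its 2 other probe sets were called in the same direction. The homeobox genes irx1b and gbx1 went the other way, at 0.62 and 0.50 (adjusted p of 5.18e-05 and 8.82e-04), and injected MZdicer had the highest irx1b level, 1224 ± 9.93 against 773 ± 14.3 without injection.

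Genes of the microRNA and mRNA decay machinery had 6 of 34 interactions called above 0 and 7 below 0, with a median of -0.04. Without uninjected MZdicer replicate 3, 4 lay below 0. The decapping activator gene lsm1 stood at 127, 138 and 134 without and 122, 132 and 151 with injection in wild type, and at 328, 323 and 339 without and 112, 106 and 119 with injection in MZdicer. Only the uninjected MZdicer arrays were high, and the interaction was -1.44 ± 0.12 (adjusted p = 5.82e-06). The deadenylase gene cnot7 was dim, from 152 ± 3.01 to 65.7 ± 16.5 in MZdicer against 39.5 ± 10.8 and 44.9 ± 6.85 in wild type (interaction -1.21, adjusted p = 0.00205). The gene tob1b, for an antiproliferative protein that binds the deadenylase complex, lay above 0 at 0.84 (adjusted p = 9.37e-05), with 0.90 on its other probe set.

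Genes of p53, apoptosis and stress had 9 of 37 interactions called above 0 and 4 below 0 (txnrd3, mdm4, atf3 and jun), with a median of 0.09. The thioredoxin reductase gene txnrd3 read 3278 ± 52.6 in uninjected and 1509 ± 198 in injected MZdicer, against 1257 ± 26.1 and 1452 ± 69.2 in wild type (interaction -1.32, adjusted p = 3.85e-06). The p53 regulator gene mdm4 had -0.96 (adjusted p = 1.66e-04). The survival gene mcl1a of the Bcl-2 family fell in wild type from 1098 ± 33.1 to 778 ± 18.7 and had an interaction of 0.53 (adjusted p = 1.43e-04). Among 13 interferon and RNA sensing genes, the exonuclease gene isg20 (-0.55, adjusted p = 7.92e-04) and the RNA editing gene adar (0.30, adjusted p = 0.0219) were called, and the antiviral GTPase gene mxa was not (0.38, adjusted p = 0.0904). The adar call was lost with the intensities as deposited (0.26, adjusted p = 0.105), and without uninjected MZdicer replicate 2, injected wild-type replicate 3 or uninjected wild-type replicate 3 (adjusted p of 0.0576, 0.0565 and 0.0638).

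Ribosomal protein genes had 0 of 70 interactions called by limma, with 7 at an unadjusted p under 0.05 and a median of -0.03. Over all probe sets, 5206 of 15502 had an unadjusted p under 0.05, a larger share than in this list and the next. The smallest p-values were those of rps27l (0.64, adjusted p = 0.0604), rps19 (-0.17, adjusted p = 0.0718) and rps10 (-0.11, adjusted p = 0.0835). Of 23 alternatives, rps27l and rps19 were each called in 4, and rps10 was not called in any. The rps27l value was 0.41 without injected MZdicer replicate 1, which read 1409.8 against 809 and 910.4 in its group, and it was called without replicate 2 of that group (0.80, adjusted p = 0.0172). Under median centring 4 ribosomal protein genes were called above 0, and without uninjected wild-type replicate 1, 3 were called below 0. Markers of later cell types, known from stages after gastrulation, had 0 of 32 called, with 5 at an unadjusted p under 0.05, and 3 above and 1 below 0 without uninjected wild-type replicate 1. Their smallest p-values belonged to the pigment gene tyr (-0.56, adjusted p = 0.0587), the opsin gene opn1sw1 (0.38, adjusted p = 0.0712) and the liver gene fabp10a (0.55, adjusted p = 0.0940). The tyr interaction was called in 7 of 22 alternatives and that of opn1sw1 in 4 of 22. With the dimmest 40% left out, 14 of the 32 markers remained, with 0 called. Dim probe sets were called less often, so the share over all probe sets is no close match for this list. The tyr probe set was dim, with a mean intensity of 22.2 over the 12 arrays. The fabp10a value was 0.34 without injected wild-type replicate 2, and it was called without replicate 3 of that group (0.69, adjusted p = 0.0421).

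**Figure D4:**
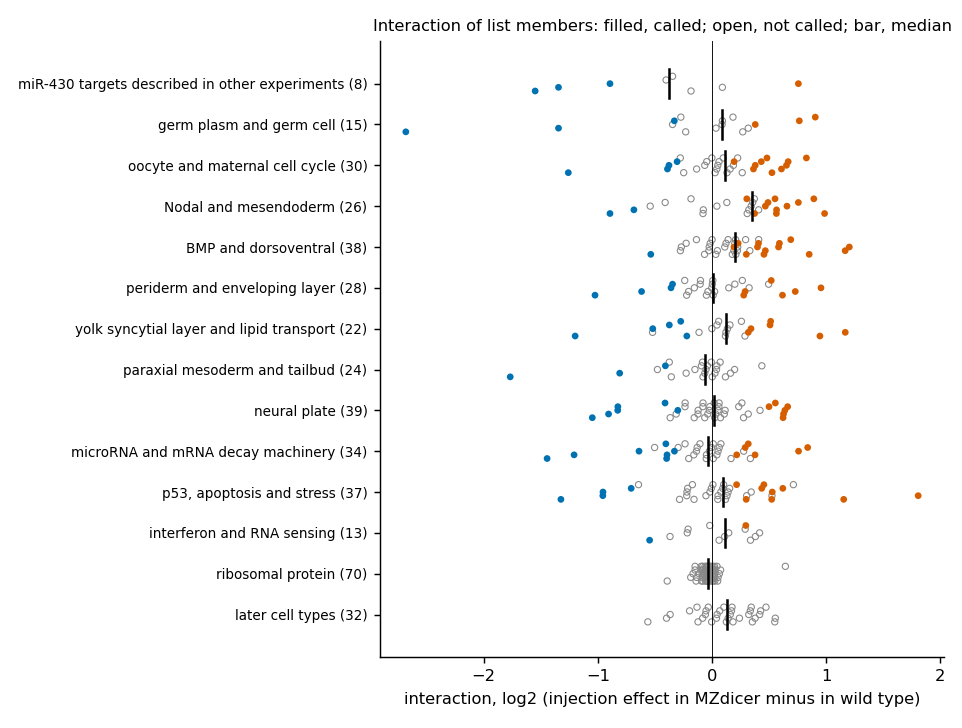
Interaction of each measured list member on the log2 scale (horizontal axis), 1 point per gene, with the number of measured members in brackets. Filled points were called (blue below 0, orange above 0), open points were not, and the black bar is the list median. Called BMP members lie above 0 except szl, and ribosomal protein genes cluster near 0 with none called.

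The arrays outside the layout, 2 of 16-cell embryos and 1 of 50% epiboly, gave a division of transcripts by stage. Its levels are those of these arrays, but they were quantile normalised together with the 12, so the division is not fully independent of them. Probe sets at least 2-fold lower at 50% epiboly than at 16 cells numbered 3028, those at least 2-fold higher 2701, and those that were above the median at 16 cells and changed less than 2-fold (called kept) 4267. The 50% epiboly stage has a single array, so this division carries no test. Of the 3028 probe sets that were lower, 623 (20.6%) had a called interaction below 0 and 242 (7.99%) above 0, against 12% and 10.7% over all probe sets. With the intensities as deposited these were 683 and 119. Of the 2701 that were higher, 392 (14.5%) lay below and 462 (17.1%) above 0. Of the 4267 that were kept, 511 (12%) lay below and 730 (17.1%) above 0. The balance in these 2 classes depends on scaling, since as deposited 386 lay below and 345 above 0 among those that were higher, and 521 below and 493 above among those that were kept. The remaining 5506 probe sets, not above the median at 16 cells, had 333 (6.05%) called below and 223 (4.05%) above 0. They lower the share over all probe sets. With the dimmest 40% left out, 1562 of 9301 probe sets were called above 0, a share close to that of the kept class.

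Read by class, 365 of the 753 interactions below 0 led by MZdicer (48.5%) were lower at 50% epiboly, as were 78 of the 351 led by wild type (22.2%), 54 of the 396 above 0 led by MZdicer (13.6%) and 50 of the 264 above 0 led by wild type (18.9%). Over all probe sets this share was 19.5%. All 6 named genes of the first class were among them. The transcript of sod1 read 3114 and 3217 at 16 cells and 327 at 50% epiboly, and tdrd6a 1678 and 1561 against 199. All 6 named genes above 0 led by MZdicer were in the opposite class, higher at 50% epiboly, with tp53inp2a at 37.3 and 6.62 against 1749. Of this class as a whole, 145 of 396 (36.6%) were higher at 50% epiboly, where 17.4% of all and 29.8% of above-median probe sets were.

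**Figure D5:**
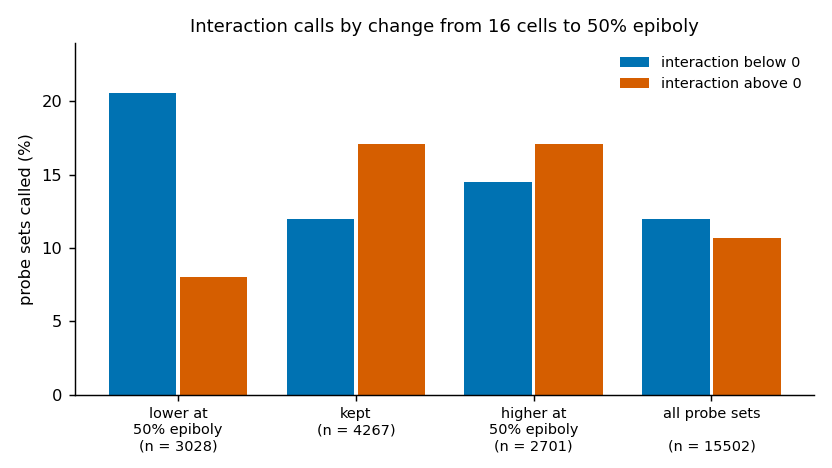
Share of probe sets with a called interaction below 0 (blue) and above 0 (orange), by the change from the 16-cell stage (2 arrays) to 50% epiboly (1 array). Bars start at 0 and n is the number of probe sets. The 5506 probe sets in none of the classes enter only the bars for all probe sets. Transcripts lower at 50% epiboly had 20.6% below 0 and 7.99% above 0, against 12% and 10.7% over all.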

How the data were processed

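RNA of 20 embryos per array was hybridised to 1-colour Affymetrix zebrafish arrays. The deposited values are probe set intensities on a linear scale, and the probe set summary, background correction and scaling behind them are not given in the sources used here. Of 15617 probe sets, 115 controls were left out and 15502 were tested. The platform annotation gave 1 symbol for 10795, several for 135 and none for 4572, and 10711 matched a gene identifier in the reference table, which updated 1 symbol. All value columns were mapped to samples (0 unmapped). The array information files deposited with the arrays hold text fields and no unit of measurement. They served only for the hybridisation date (called fluidics run here), the fluidics station and the scan day.

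Intensities of the 12 arrays were quantile normalised, values below 0 set to 0 and transformed as log2(intensity + 16). Deposited medians lay between 171 and 196. A model of 4 group means (8 residual degrees of freedom) was fitted with limma 3.58.1 (lmFit, eBayes with trend) in R 4.3.3, and the interaction, both injection effects and both genotype differences were taken as contrasts and p-values adjusted over all probe sets by Benjamini and Hochberg. Tables and plots used Python 3.11.15, pandas 2.3.3 and matplotlib 3.10.9. On simulated data for the interaction over 15502 probe sets, 25 of 67 changes of 1.5-fold, 50 of 67 of 2-fold and 64 of 66 of 4-fold were recovered, with 3 false calls. The simulated arrays had independent normal noise around equal group means, apart from the planted changes, and no run, station or scaling differences. The 3 false calls therefore do not measure false calls among the real arrays.

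Named genes were, in each of the 4 classes, the 6 of largest interaction among called probe sets of at least 1.5-fold, above-median intensity and a single symbol that is no clone name, plus all listed miR-430 targets, dicer1 and from each remaining list at most 3 members, those of smallest p. A gene was represented by its brightest probe set. Some genes stand in more than 1 list. The comparison, the lists and the rule were chosen with earlier results of these data known. The alternatives were other scalings, pseudocounts of 1 and 64, a test without the dimmest 40%, no trend, blocks for replicate number, scan day and fluidics run, all 15 arrays in the fit, each genotype alone, and each array left out in turn.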

Additional observations from a re-analysis of the deposited data

Results flagged for a closer look

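The injection effect differed between the genotypes, by the interaction term of the limma model at an adjusted p under 0.05, for 3516 probe sets. Of the 69 named genes, 58 passed the same test, and their interactions on the log2 scale follow, each the effect in MZdicer minus that in wild type.

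Below 0 with the larger effect in MZdicer were cd82b (-3.01), sod1 (-2.73), tdrd6a (-2.68), caprin2 (-2.25), gstp1.2 (-2.05) and ap2m1b (-2.04). Below 0 with the larger effect in wild type were cnga1a (-2.36), map1sa (-2.24), nme2b.2 (-1.92), b9d1 (-1.73), rtn1a (-1.57) and rab6a (-1.44).

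Above 0 with the larger effect in MZdicer were cd44a (2.48), cyba (2.02), tp53inp2a (1.81), nr0b2a (1.43), selenop (1.38) and hsd3b2 (1.35). Above 0 with the larger effect in wild type were sgsm3 (1.82), odf3l2a (1.67), lrwd1 (1.66), cyp2ad2 (1.60), prpf3 (1.55) and snap29 (1.43). Among the miR-430 targets these were cxcl12a (-1.55), nanos3 (-1.34), lft2 (-0.89) and lft1 (0.76). The genes of the 4 classes were named for the size of this same interaction, so their values are a description.

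Of the gene named for the mutation and of those named from the other lists, which were taken for their small p, the following lay below 0: dlb (-1.77), lsm1 (-1.44), txnrd3 (-1.32), cnot7 (-1.21), apoa2 (-1.20), mdm4 (-0.96), sox11a (-0.83), aldh1a2 (-0.81), isg20 (-0.55), cyp26a1 (-0.41), dicer1 (-0.39) and ppl (-0.35). The following lay above 0: hnf4a (1.17), admp (1.17), tdgf1 (0.99), klf17 (0.95), piwil2 (0.90), sox32 (0.89), tob1b (0.84), cdc6 (0.83), klf2b (0.73), bmp2b (0.69), cdc20 (0.67), irx1b (0.62), fbxo5 (0.61), gata2a (0.58), mcl1a (0.53), cpn1 (0.51), gbx1 (0.50) and adar (0.30).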

How the results depend on the processing

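With 1 array left out in turn, interaction calls numbered 2862 to 3905, those above 0 1278 to 1860, those below 0 1578 to 2045, and those of at least 1.5-fold 597 to 764 above and 1017 to 1179 below 0. Injection calls ranged from 2953 to 3945 in MZdicer and from 1338 to 2892 in wild type, the lowest without uninjected wild-type replicate 3. With the intensities as deposited, interaction calls above 0 numbered 1069 in place of 1657, and the tdrd7a interaction, not called, was -0.011 in place of 0.09. The pseudocount of 64 left 408 interactions of at least 1.5-fold above 0 in place of 660, as it shrinks the fold of dim probe sets by construction. The cause of the other changes was not tested. Replicate numbers did not pair the arrays, as deviations of same-numbered arrays correlated between -0.23 and 0.26 and 3 of 12 arrays correlated best with their own number. The replicate block gave 3271 interaction calls in place of 3516, the scan day block 3609 and the fluidics run as a random block 3337. The other scan day held only 1 of the 12 arrays, uninjected wild-type replicate 1. That block therefore amounts to leaving this array out, which gave 3607 calls. No run held uninjected wild type together with another group, so the run block cannot separate run from that group. Of 69 named genes, 58 were called, and 56 of these kept their direction and call in every alternative run on them (22 for piwil2 and cnot7, which were among the dimmest 40%, and 23 for the others), the exceptions being cyp26a1 and adar. Most were named for a large interaction or a small p on these same arrays. That choice largely set this outcome in advance, so it is no independent check. The 11 named genes without a call were less stable. Among them, tyr was called in 7 of 22 alternatives and rps27l, rps19 and opn1sw1 in 4 each. Limits are the 3 arrays per group, the lack of a control injection, the unstated age of injected embryos, a fluidics run that cannot be told apart from the uninjected wild-type group, and a fluidics station that cannot be told apart from injection in MZdicer. Probe sets that carry several symbols or none were tested but not named.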
